A study of Homo sapiens with 14 samples.

Results

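Cholesterol synthesis genes were followed across drug-resistant derivatives of OVCAR-3, an established human ovarian carcinoma cell line. The set was named by gene symbol, and its members were looked up in the platform's probe-to-gene table among 18398 measured genes. Of 8 genes named, 7 had a row. They were HMGCS1, IDI1, SQLE, LSS, SC5D and DHCR7, which encode enzymes of the pathway, and INSIG1, which encodes one of its regulators. Each had a single row, and FDFT1 was not analysed here. None of the 7 encodes a receptor for lipoprotein uptake, so uptake was read only from a separate list of genes.

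The arrays came from 3 groups. Selected cells were 5 sublines, R1, R3, R5, R6 and R7, derived separately for resistance to PHA-533533, which inhibits the cell cycle kinase CDK2. Their RNA was taken at passage 5, with the compound present at 4 µM (n = 5). Stable cells were the same 5 sublines at passage 10 or later, grown with 0 µM (n = 5). Parental cells were 4 replicates of OVCAR-3 kept in the same serum-containing medium with 0 µM (n = 4). Each subline gave 1 array per state. Inhibitor and passage therefore cannot be told apart in a comparison of the states, and growth in inhibitor and acquired resistance cannot be told apart in a comparison with parental cells. Whether a subline was 1 clone is not given in the sources used here, nor is whether parental replicates came from different cultures, so p-values reflect only how far these samples spread, possibly for technical reasons.

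Cholesterol is built from acetyl units through mevalonate, the branched isoprenoid diphosphates, squalene and lanosterol, and most of the enzymes are under common control. When sterols in the endoplasmic reticulum are scarce, SCAP escorts the SREBP transcription factors to the Golgi apparatus, where they are cleaved and released to switch on the enzyme genes. When sterols are plentiful, INSIG proteins hold SCAP back. SREBPs bind weakly alone and act with partners such as NF-Y, which recognises the CCAAT box.

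Promoter sequence is shown for the 1 member called between groups, SC5D, and for HMGCS1, the first enzyme of the set, which was not called. It is also shown for the regulator INSIG1, and for SREBF2, the gene of SREBP-2, which was lower in selected cells. RefSeq promoter windows (GRCh38.p14) were read for 6 of the 7 genes, and no promoter of SQLE was analysed here. The 250 bases before the first listed start are given on the strand of the gene, for SC5D at chr11:121292521-121292770 (plus strand), HMGCS1 at chr5:43313413-43313662 (minus strand), INSIG1 at chr7:155297628-155297877 (plus strand) and SREBF2 at chr22:41832855-41833104 (plus strand). Capitals mark CCAAT and the sterol element pattern TCANNCCAC on either strand.
SC5D: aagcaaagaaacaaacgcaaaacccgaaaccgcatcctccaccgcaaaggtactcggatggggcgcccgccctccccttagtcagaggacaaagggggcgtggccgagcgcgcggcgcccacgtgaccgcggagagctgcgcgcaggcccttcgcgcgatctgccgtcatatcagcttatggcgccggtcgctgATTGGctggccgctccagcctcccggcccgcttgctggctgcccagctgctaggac
HMGCS1: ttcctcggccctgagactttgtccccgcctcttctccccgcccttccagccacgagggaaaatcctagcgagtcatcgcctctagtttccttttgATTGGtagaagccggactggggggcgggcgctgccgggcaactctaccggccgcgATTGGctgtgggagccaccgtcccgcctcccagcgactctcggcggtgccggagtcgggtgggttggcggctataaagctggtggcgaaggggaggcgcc
INSIG1: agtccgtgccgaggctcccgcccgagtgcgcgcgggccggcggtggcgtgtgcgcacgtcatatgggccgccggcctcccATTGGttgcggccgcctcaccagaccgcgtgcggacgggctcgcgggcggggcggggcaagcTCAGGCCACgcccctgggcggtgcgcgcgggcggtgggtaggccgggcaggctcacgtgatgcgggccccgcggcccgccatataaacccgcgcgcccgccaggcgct
SREBF2: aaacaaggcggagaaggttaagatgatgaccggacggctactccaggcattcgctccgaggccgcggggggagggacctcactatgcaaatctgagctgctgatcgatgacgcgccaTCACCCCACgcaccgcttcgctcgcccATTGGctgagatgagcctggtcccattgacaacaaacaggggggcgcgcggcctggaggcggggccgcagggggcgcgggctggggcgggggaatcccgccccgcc
A CCAAT box stood in at least 1 window of all 6 genes, as it did in 32.0% of all 35116 windows and, counted by gene, in 37.0% of 27305 genes. IDI1 had 3 windows, HMGCS1, DHCR7 and SC5D 2 each, and INSIG1 and LSS 1 each. A gene with more windows has more room for a match. No CCAAT box stood in the first listed window of IDI1 or in window 2 of HMGCS1 and DHCR7. The pattern TCANNCCAC stood in 1 of the 6 genes, INSIG1, against 3.14% of all windows and 3.89% of genes. It also stood in the SREBF2 window, and not in those of SREBF1, TM7SF2 and FADS1, other genes called lower in selected cells. Of these genes outside the set, SREBF2 and TM7SF2 held a CCAAT box, and SREBF1 and FADS1 held none. These are matches of letters in short windows and show no binding.

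The value table holds log2 signal, in which a difference of 1 is a doubling. Array medians lay between 7.54 and 7.68, and precision is limited by how many arrays there are. The 8 epithelial and ovarian carcinoma markers had means of 9.32 to 13.1 over the arrays, PAX8 among them at 11.90, and WT1 the lowest at 9.32. The 6 fibroblast markers had means of 4.92 (LUM) to 9.08 (COL1A1), with COL1A2 at 7.78 also above the array medians. The 5 leukocyte markers had means of 5.35 (PTPRC) to 7.97 (CD68), with CD14 at 7.83, and the 5 endothelial markers 6.09 (TEK) to 6.94 (PECAM1). No gene of these fibroblast, leukocyte or endothelial lists was called in any comparison (limma, 0 at an unadjusted p under 0.05). None of the 8 epithelial and ovarian markers was called in selected against parental cells (limma, 5 at an unadjusted p under 0.05), MUC16 differing by -0.88 (adjusted p = 0.0591). Their part in the results was not tested. The mean of 359 olfactory receptor genes, used as a measure of background signal, was 6.06 to 6.60 in selected, 6.19 to 6.70 in stable and 6.17 to 6.72 in parental arrays.

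SC5D, the desaturase of a late step that makes the precursor of the last reduction, was the 1 member called between groups. Its signal was 11.57 (R1), 11.41 (R3), 11.08 (R5), 11.43 (R6) and 11.38 (R7) on the selected arrays. The stable arrays gave 11.11, 10.93, 10.74, 10.75 and 10.47 for the same sublines in the same order. The parental replicates gave 10.91, 10.74, 10.92 and 10.36. All selected arrays lay above all parental arrays, which was so for 6.81% of all genes (6.92% were called by limma, 5.03% higher), while the selected array of R5 lay just under the stable array of R1. SC5D rose in selected cells by 0.64 over parental cells (SE 0.13, 1.56-fold, limma adjusted p = 0.0133). Selected cells averaged 11.37 ± 0.18 (SD, n = 5) and parental cells 10.73 ± 0.26 (SD, n = 4). In such bulk samples a change in the mix of cells and a change in RNA per cell cannot be told apart. SC5D kept its call in all 16 alternative settings (adjusted p 0.0072 to 0.0389), and with olfactory receptor signal as a covariate the difference was 0.63 (adjusted p = 0.0103).

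HMGCS1, which makes HMG-CoA at the entry to the pathway, had lower values in most selected arrays and did not pass the test. Its signal was 10.37 (R1), 9.93 (R3), 9.28 (R5), 10.04 (R6) and 10.02 (R7) on the selected arrays, 10.81, 10.64, 9.90, 9.80 and 9.35 among the stable arrays, and 10.24, 10.55, 10.23 and 10.41 among the parental replicates. Of the selected arrays, that of R1 alone reached into the parental range. The difference of selected from parental cells was -0.43 (SE 0.17, limma adjusted p = 0.178, unadjusted p = 0.0293). Without the selected array of R5 it was -0.27 (adjusted p = 0.196). Selected cells averaged 9.93 ± 0.40 (SD, n = 5) and parental cells 10.36 ± 0.15 (SD, n = 4).

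The other 5 members had selected and parental means close to each other. IDI1, which isomerises the first isoprenoid diphosphate, averaged 10.14 ± 0.30 in selected cells (SD, n = 5) and 10.01 ± 0.15 in parental cells (SD, n = 4), a difference of 0.14 (SE 0.14). SQLE, which oxidises squalene and is a rate-controlling step, averaged 9.89 ± 0.32 in selected and 9.88 ± 0.29 in parental cells, a difference of 0.015 (SE 0.17). LSS, which closes the sterol rings to give lanosterol, averaged 9.83 ± 0.23 in selected and 9.95 ± 0.35 in parental cells, a difference of -0.12 (SE 0.16). DHCR7, which performs a last reduction to cholesterol, differed by 0.0022 (SE 0.12) and INSIG1 by 0.033 (SE 0.19). Their limma adjusted p-values lay between 0.692 and 0.996, and the groups overlapped for each of them.

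The single arrays of these 5 genes spread around the group means. INSIG1 was 9.37 (R1), 9.23 (R3), 8.40 (R5), 9.50 (R6) and 9.23 (R7) in selected cells, 9.61, 9.50, 9.20, 8.53 and 8.21 in stable cells, and 9.19, 9.32, 8.81 and 9.12 in parental replicates. DHCR7 was 11.05 (R1), 10.65 (R3), 10.37 (R5), 10.81 (R6) and 10.91 (R7) in selected cells, 11.24, 10.69, 10.76, 10.45 and 10.02 in stable cells, and 10.71, 10.92, 10.69 and 10.70 in parental replicates. For both genes the resistant arrays lay on both sides of the parental range. IDI1 was 10.55 (R1), 9.97 (R3), 9.76 (R5), 10.16 (R6) and 10.29 (R7) in selected cells, 10.42, 10.13, 9.77, 9.56 and 9.43 in stable cells, and 10.11, 10.15, 9.85 and 9.92 in parental replicates. SQLE was 10.23 (R1), 10.07 (R3), 9.41 (R5), 9.77 (R6) and 10.00 (R7) in selected cells, 10.34, 9.94, 9.43, 9.40 and 9.24 in stable cells, and 9.70, 10.24, 9.59 and 9.98 in parental replicates. In both, the stable arrays of R5, R6 and R7 lay below every parental array. LSS was 10.06 (R1), 9.96 (R3), 9.47 (R5), 9.78 (R6) and 9.88 (R7) in selected cells, 10.23, 9.38, 9.83, 9.50 and 9.30 in stable cells, and 9.75, 10.28, 9.55 and 10.21 in parental replicates. Its parental replicates alone spanned more than its selected arrays did.

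Counted together, 1 of the 7 members was higher and 0 were lower in selected than in parental cells. Over all genes 6.92% were called, 5.03% higher and 1.89% lower. The median difference of the members was 0.015 and that of all genes -0.013.

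**Figure D1:**
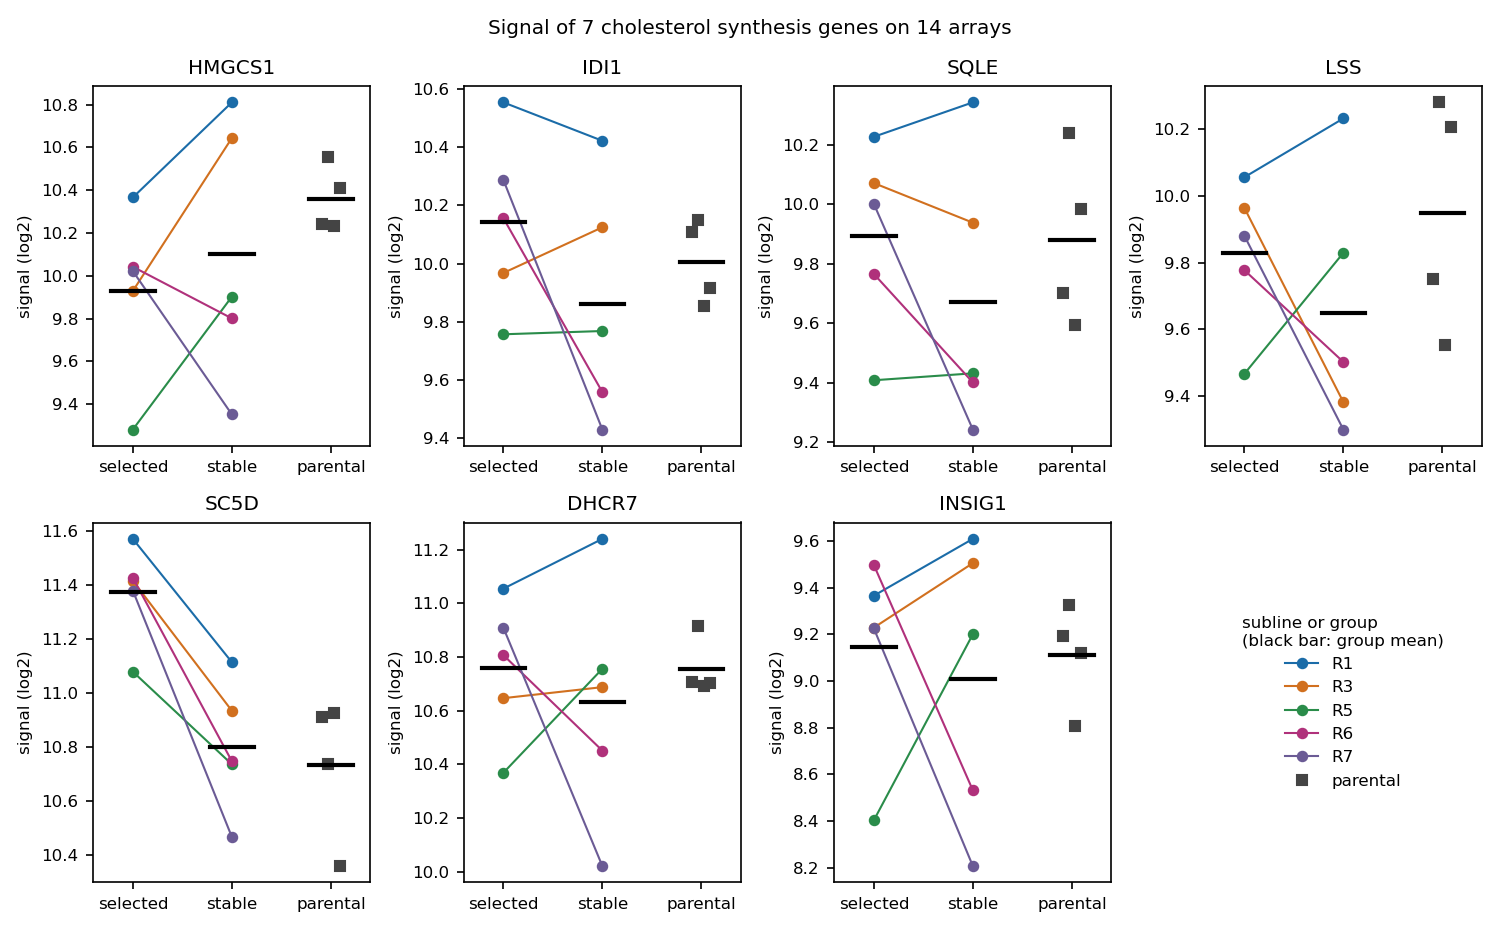
Log2 signal (vertical axis, own scale per gene) of the 7 members on each of the 14 arrays. Circles joined by a line are the selected and the stable array of 1 subline, squares are the 4 parental replicates and black bars are group means. The SC5D circles of selected cells, 11.08 to 11.57, lie above the parental squares, 10.36 to 10.92, and the stable array of R7 is the lowest stable circle in every panel.

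Among stable cells no member was called against parental cells (limma, 0 of 7, and 0 at an unadjusted p under 0.05), in a comparison in which 0.00544% of all genes were called. SC5D averaged 10.80 ± 0.24 in stable cells (SD, n = 5) against 10.73 ± 0.26 in parental cells (SD, n = 4), a difference of 0.067 (SE 0.15, adjusted p = 0.999). The other 6 differences were all negative, from -0.30 for LSS (SE 0.21) to -0.10 for INSIG1 (SE 0.27). The median of the 7 was -0.15, against -0.0038 over all genes. Stable and parental arrays overlapped for all 7, and over all genes 0.826% lay wholly higher and 1.42% wholly lower. The stable arrays spread widely. HMGCS1 had an SD of 0.61 in stable and 0.15 in parental cells. DHCR7 had 0.45 in stable and 0.11 in parental cells, and INSIG1 0.61 in stable and 0.22 in parental cells.

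Within the same sublines, selected against stable cells, SC5D was again the 1 member called. It was higher in the selected array of all 5 sublines, by 0.46 (R1), 0.48 (R3), 0.34 (R5), 0.68 (R6) and 0.91 (R7), a pattern shown by 11.8% of all genes. Paired arrays were not alike in every subline. Across genes their deviations from the group means correlated at -0.47 in R7, which had the widest SC5D difference, and at 0.050 in R3. Selected and stable cells differed by 0.57 (SE 0.12, 1.49-fold, limma adjusted p = 0.0354), in a comparison that called 2.16% of all genes, 1.54% higher. Selected and stable arrays overlapped for all 7 members, while 2.83% of all genes lay wholly higher and 1.33% wholly lower. With subline as a block 3.61% of all genes were called higher, and SC5D passed as well (adjusted p = 0.0180). In all 5 sublines the selected array had the lower olfactory receptor mean. With it as a covariate the difference was 0.45 (adjusted p = 0.0291), and with the block as well 0.39 (SE 0.13, adjusted p = 0.661), a fit that called 0 genes in all. Leaving out single arrays gave 0.49 to 0.65 and moved the adjusted p above the threshold for the selected arrays of R1, R3, R6 and R7 and the stable arrays of R5, R6 and R7 (0.0693 to 0.0949).

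**Figure D2:**
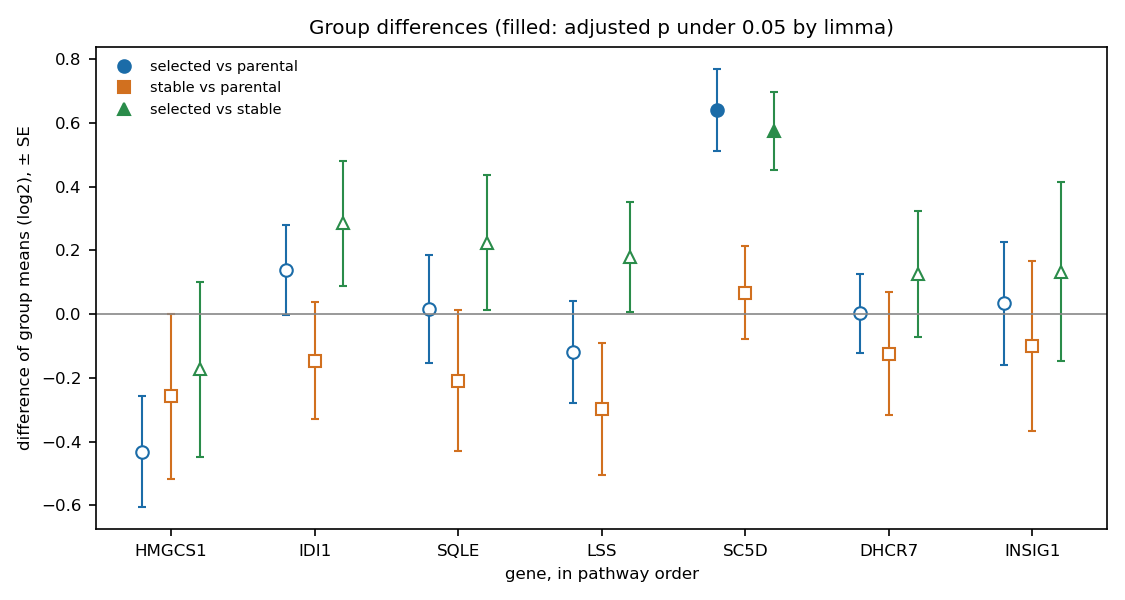
Difference of group means on the log2 scale (vertical axis, bars are ± SE from limma) for each member in the 3 comparisons, with filled symbols where the adjusted p was under 0.05. SC5D, at 0.64 against parental and 0.57 against stable cells, carries the 2 filled symbols, and HMGCS1 has the lowest value, -0.43 for selected against parental cells.

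For the other 6 members the sign of the pair difference varied between sublines. In R6 and R7 all 7 members were higher in the selected than in the stable array, with medians of 0.37 in R6 and 0.86 in R7. Of all genes, 47.7% were higher in the selected array of R6, 47.9% in that of R7 and 31.8% in both. Of the 7 members 2 were higher in R1, 3 in R3 and 1 in R5 (56.0%, 60.1% and 54.4% of all genes), with medians of -0.18, -0.041 and -0.36. INSIG1 had the widest span. Its selected minus stable difference was 0.96 in R6 and 1.02 in R7, against -0.24 in R1, -0.28 in R3 and -0.80 in R5. HMGCS1 differed by 0.24 in R6 and 0.67 in R7, against -0.44, -0.71 and -0.62 in R1, R3 and R5. With 1 array per subline and state the difference between sublines in this response was not tested. As groups, selected and stable cells differed by -0.17 for HMGCS1 (SE 0.27) to 0.28 for IDI1 (SE 0.20) over these 6 genes, none of which was called (adjusted p 0.554 to 0.876). With the olfactory receptor mean in the fit, HMGCS1 differed by -0.47 (limma adjusted p = 0.251) and IDI1 by 0.066 (adjusted p = 0.888). Over all alternatives HMGCS1 ranged from -0.58 to 0.0034 and IDI1 from 0.017 to 0.42, and neither was called in any.

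**Figure D3:**
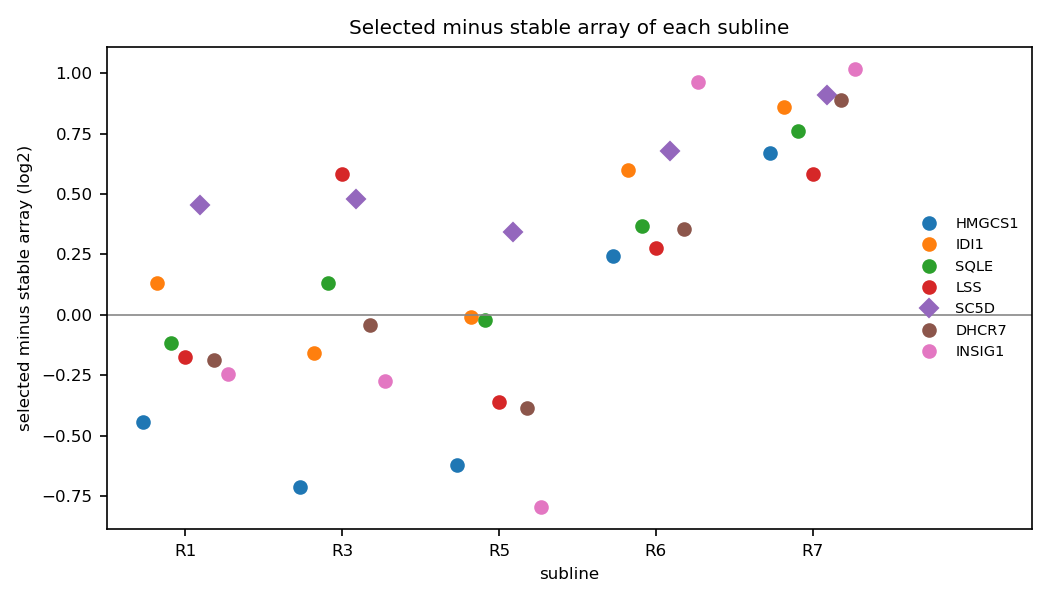
Selected minus stable array on the log2 scale (vertical axis) for each member in each of the 5 sublines (horizontal axis), 1 point per gene, with SC5D as diamonds. All points of R6 and R7 lie above 0, up to 1.02 for INSIG1, whereas SC5D is alone above 0 in R5.

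Within each state the members shared their highest or lowest subline but not the order between, a pattern noticed after the values were seen. Among the stable arrays R1 was the highest for 7 of 7 members and R7 the lowest for 7 of 7. Of all genes 27.7% had R1 as the highest stable array and 17.8% had R7 as the lowest. Among the selected arrays R5 was the lowest for 7 of 7 (17.7% of all genes) and R1 the highest for 6 of 7 (25.7% of all genes), INSIG1 being highest in R6. Centred on each gene's own mean and averaged over the 7, the member signal was 0.38 (R1), 0.10 (R3), -0.39 (R5), 0.14 (R6) and 0.17 (R7) for selected cells. For stable cells it was 0.47, 0.10, -0.13, -0.36 and -0.64 in the same order of sublines, and for the parental replicates 0.014, 0.24, -0.12 and 0.027. Among the stable arrays the olfactory receptor mean ran in the opposite order to this averaged signal, at 6.19 (R1), 6.40 (R3), 6.60 (R5), 6.63 (R6) and 6.70 (R7). Among the selected arrays it was 6.06, 6.26, 6.50, 6.60 and 6.32, so R5, the lowest for the members, was not its highest array. Its part in the differences between sublines was not tested. Among the parental arrays replicate 2 was the highest for 6 of 7 members, all but SC5D (29.4% of all genes). There the olfactory receptor mean was 6.43, 6.17, 6.72 and 6.40 in replicate order, again opposite to the averaged member signal. Its part in the differences between parental arrays was not tested either.

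A test of differences between sublines, fitted to the 10 arrays of resistant cells with state as covariate, called none of the 7 members (limma F test, 2 at an unadjusted p under 0.05) and 0.12% of all genes. The smallest p belonged to SQLE (unadjusted p = 0.00875, adjusted p = 0.182), whose subline means spanned 0.87, followed by HMGCS1 (adjusted p = 0.303). Fits with the olfactory receptor mean as a further covariate called no member (0 genes in all). Array weights, which let noisy arrays count for less, called SQLE (adjusted p = 0.0262) and 1389 genes in all.

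Each member's profile was set against the mean of the other 6 over the 14 arrays, as a description, since arrays of a subline share their cells and all arrays share the background noted above. Pearson's r was 0.94 for DHCR7, 0.93 for IDI1, 0.91 for SQLE, 0.89 for INSIG1, 0.75 for HMGCS1, 0.70 for LSS and 0.40 for SC5D. SC5D thus followed the common profile least. The 5 genes outside the set with the highest r to the mean of the members were CYP51A1 at 0.97, SNX24 at 0.94, STARD4 at 0.93, PHACTR4 at 0.93 and MID1IP1 at 0.92, out of 18391 genes. CYP51A1 is the demethylase that acts on lanosterol, and STARD4 is a carrier of cholesterol in the cytosol. STARD4 was 9.20, 8.78, 8.24, 9.07 and 8.98 in selected cells of R1, R3, R5, R6 and R7, against 9.26, 8.31, 8.33, 7.91 and 7.31 in stable cells, so it too was lowest in the selected array of R5 and the stable array of R7. CYP51A1 was 10.42, 10.08, 9.62, 10.14 and 10.30 in selected cells, against 10.45, 10.00, 9.87, 9.51 and 9.40 in stable cells.

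Lists of 61 other sterol and lipid genes were read in the same fits. In selected against parental cells 5 were higher, 4 lower and 52 not called, beside 5.03% of all genes called higher and 1.89% lower. Of 6 other genes of the mevalonate arm none was called (limma, 1 at an unadjusted p under 0.05, GGPS1 at 0.25, adjusted p = 0.118). Of 7 genes between squalene and cholesterol TM7SF2, a sterol reductase, fell at -0.48 (SE 0.09, adjusted p = 0.00825), while MSMO1, ERG28 and NSDHL, of the demethylation complex that comes before SC5D's step, differed by 0.49, 0.23 and 0.25 and did not pass (adjusted p = 0.0669, 0.0642 and 0.0993). ERG28 was called in 3, MSMO1 in 2 and NSDHL in 1 of 16 alternatives. TM7SF2 was 8.53 to 8.86 in selected cells, all below the 9.06 to 9.36 of parental cells. Groups did not overlap in this direction for 2.96% of all genes.

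Both genes of the SREBP factors were lower in selected cells, 2 of 10 control genes called (1.89% of all genes were called lower). SREBF2, which favours the sterol branch, was 9.07 (R1), 9.09 (R3), 8.42 (R5), 8.91 (R6) and 8.97 (R7) in selected cells, against 9.43, 9.58, 9.29 and 9.57 in parental replicates. SREBF1, which favours fatty acid synthesis, was 9.31, 9.33, 8.79, 9.07 and 9.03 in selected cells, against 9.48, 10.01, 9.36 and 9.95 in parental replicates. No selected array reached the parental range for either gene, and 2.96% of all genes lay wholly lower in this way. SREBF2 fell at -0.57 (SE 0.13, limma adjusted p = 0.0236) and SREBF1 at -0.60 (SE 0.15, adjusted p = 0.0395). Both calls stood near the threshold and were lost in 6 and 8 of 16 alternatives (adjusted p up to 0.0835 and 0.134), among them leaving out parental replicate 1, 2 or 4, or the selected array of R7. In stable cells the differences from parental cells were -0.45 for SREBF2 and -0.55 for SREBF1 and neither passed (adjusted p = 0.651 for both). INSIG2, a paralogue of INSIG1, differed by 0.23 in selected cells and did not pass (adjusted p = 0.148).

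Of 13 genes of cholesterol uptake and transport inside the cell, the receptors VLDLR, LRP1 and SCARB1 among them, 3 were higher and 0 lower in selected cells (5.03% and 1.89% of all genes). The 3 act inside the cell. NPC1, which exports cholesterol from the lysosome, was 10.58 to 10.96 in selected cells, against 9.87 to 10.40 in parental cells. These groups did not overlap, as for 6.81% of all genes lying wholly higher, and NPC1 rose by 0.55 (SE 0.11, limma adjusted p = 0.0147). LIPA, the lysosomal lipase that frees cholesterol from its esters, rose by 0.48 (limma adjusted p = 0.0217). GRAMD1C, a carrier at membrane contacts, also rose by 0.48 (limma adjusted p = 0.00791), at a low signal. It averaged 7.68 in selected and 7.20 in parental cells, beside array medians of 7.54 to 7.68. The filter at the 40th percentile of signal left GRAMD1C out, and it kept its call in the 15 other alternatives. The LIPA call was lost in 4 of 16 alternatives, when parental replicate 4 or the selected array from R3 or R7 was left out and in 1 fit of all 14 arrays (adjusted p 0.0524 to 0.134). Of 7 efflux and esterification genes 2 rose (5.03% of all genes). These were NCEH1, a hydrolase of cholesterol esters, by 0.70 (SE 0.13, adjusted p = 0.00896), and SOAT1, which makes the esters, by 0.53 (SE 0.12, adjusted p = 0.0212). SOAT1 lost its call without parental replicate 1, 3 or 4 or the selected array of R7 (adjusted p 0.0501 to 0.0608). Of 11 fatty acid synthesis genes FADS1, a desaturase, fell at -0.62 (SE 0.11, adjusted p = 0.00700), while ELOVL6 and FASN, at -0.50 each, did not pass (adjusted p = 0.113 and 0.0956). FASN was called in 2 and ELOVL6 in 1 of 16 alternatives. Of 7 genes that use isoprenoids none was called (limma, 3 at an unadjusted p under 0.05).

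**Figure D4:**
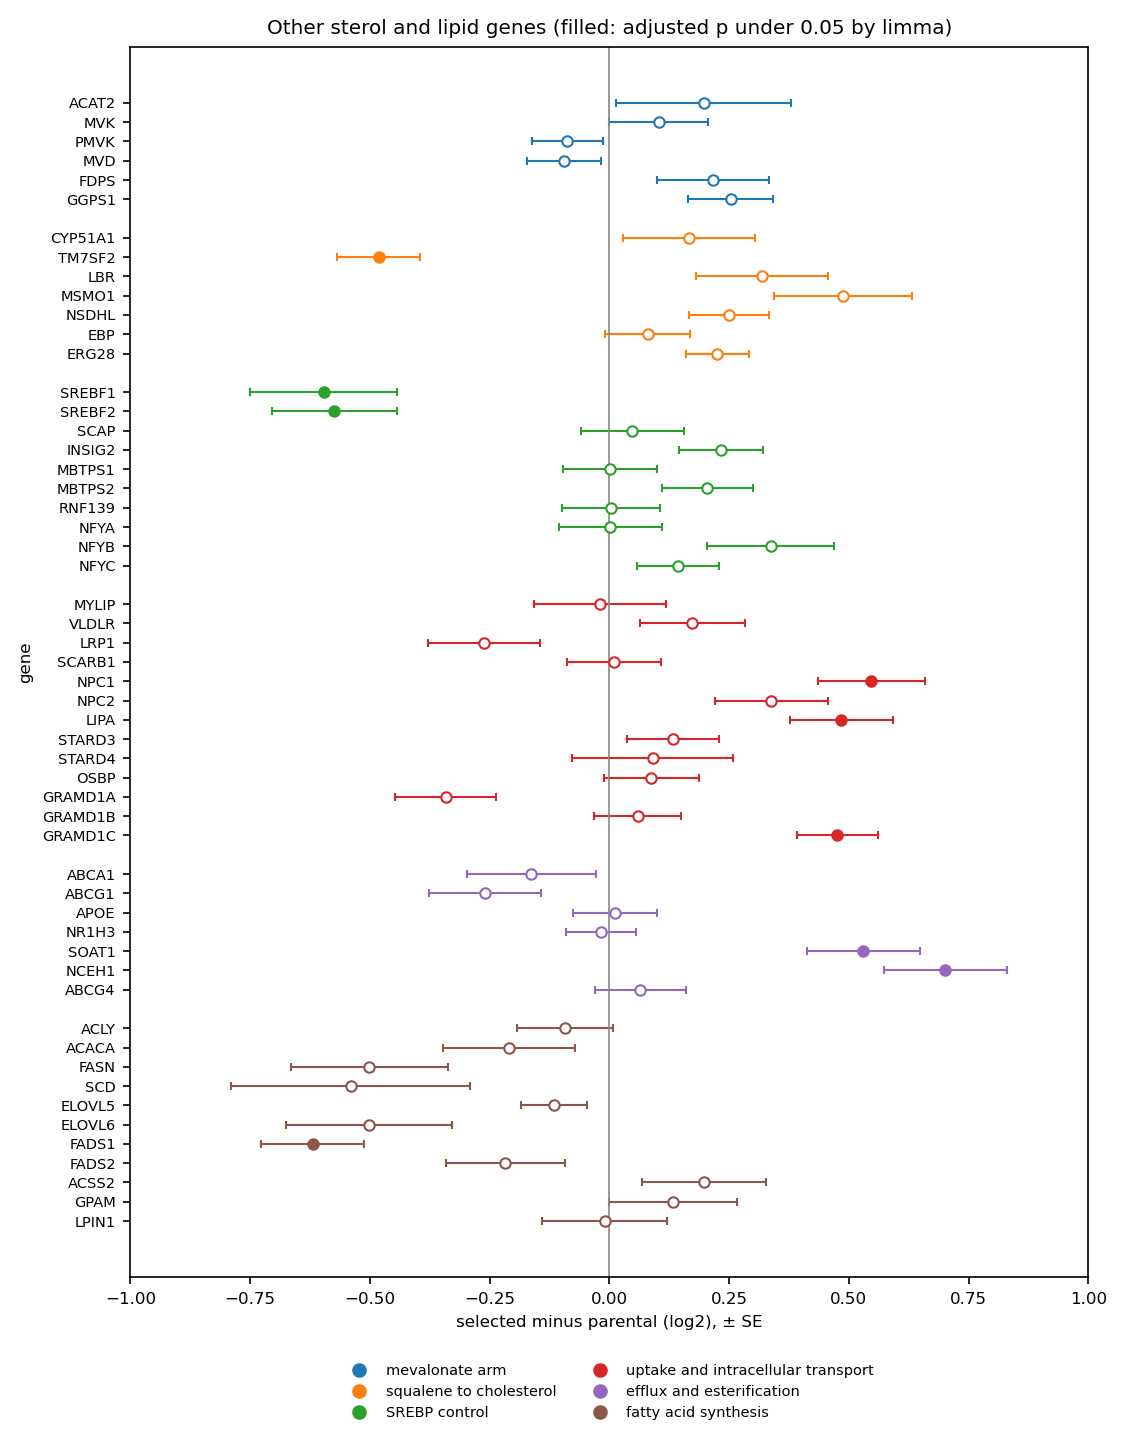
Selected minus parental difference on the log2 scale (horizontal axis, bars are ± SE from limma) for the measured genes of 6 of the lists, coloured by list and filled where the adjusted p was under 0.05. TM7SF2, SREBF1, SREBF2 and FADS1 are filled left of 0, and NPC1, LIPA, GRAMD1C, SOAT1 and NCEH1 right of 0, from 0.48 to 0.70.

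None of the 61 was called in stable against parental cells (limma, 8 at an unadjusted p under 0.05). NCEH1 came nearest, at 0.49 (adjusted p = 0.393), and its 5 stable arrays, at 8.31 to 9.02, lay above the 7.95 to 8.25 of the parental arrays, which was so for 0.826% of all genes. NCEH1 and SREBF2 were each called in 1 of 16 alternatives of this comparison (limma adjusted p = 0.0409 and 0.0372). None of the 61 was called in selected against stable cells either (limma, 6 at an unadjusted p under 0.05). With subline as a block SOAT1 was, at 0.45 (adjusted p = 0.0386, against 0.0672 without the block). The epithelial marker CDH1 was likewise called with the block and not without it, at 0.59 (adjusted p = 0.0384 with the block and 0.0770 without). NPC1 and GRAMD1C differed by 0.40 and 0.37 between selected and stable cells and did not pass (adjusted p = 0.150 and 0.127), nor did MVK at 0.33 (adjusted p = 0.190) or FDPS at 0.32 (adjusted p = 0.280), the kinase and the prenyl diphosphate synthase of the mevalonate arm. Over 29 alternatives of selected against stable cells SOAT1 and CDH1 were called in 7 each, NPC1 in 2 and MVK in 1. The comparisons with parental cells share the same 4 arrays and are not independent of each other.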

How the data were processed

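Per the labels, biotin-labelled RNA was hybridised to 14 Affymetrix arrays. The values deposited by the authors, 4.34 to 14.9, were taken as log2 signal from their range. How they were normalized and summarised is not given in the sources used here.

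Of 32295 rows 19148 name 1 gene, 1376 several, and 11771 are unnamed here. Symbols were updated through a RefSeq table (GRCh38.p14), which held 19118. For each gene the row of highest mean signal was used, leaving 18398 genes. Groups follow the labels. limma 3.58.1 in R 4.3.3 was used, two-sided, adjusted by Benjamini-Hochberg across the 18398 genes, calling below 0.05. The 3 group comparisons had no covariate.

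Subline names pair selected and stable arrays. Correlations of paired deviations across genes were 0.64 (R1), 0.050 (R3), 0.37 (R5), 0.55 (R6) and -0.47 (R7). Members, lists and the olfactory receptor measure were chosen with earlier results of these data known. Named were all members, up to 4 genes per list and comparison by smallest p, and the 5 genes most like the members. CYP51A1 and STARD4 were described further after their values were seen. The main form of each fit was tested on simulated data (18398 genes), with independent noise on each array. The block and covariate fits were not. Of changes of 0.5 log2, selected against parental recovered 52.5%, stable against parental 39% and selected against stable 59.5%. Between sublines 91.5% of changes of 2 log2, placed in R1 alone, were recovered. The members' subline means spanned 0.43 to 1.00, and changes of that size were not tried. Alternatives are given in the closing section.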

Additional observations from a re-analysis of the deposited data

Results flagged for a closer look

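Each of the 21 sets of arrays, 7 members in 3 groups, was checked for a single array far from the rest. Chance gives about 1 such array in 20 sets, and 2 were found. INSIG1 in the selected array of R5 was 8.40, far below the other 4 selected arrays, of which the nearest was 9.23. DHCR7 in parental replicate 2 was 10.92, far above the other 3 parental arrays at 10.69 to 10.71.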

How the results depend on the processing

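The call of SC5D in selected against parental cells and the absence of other member calls held in all 16 alternatives, and in stable against parental cells no member was called in any of 16. For selected against stable cells 14 of 29 alternatives called 0 members, among them median centring (SC5D adjusted p = 0.0974) and the block with the olfactory receptor mean, a fit chosen after the data were seen. Single arrays or sublines left out gave 0 to 1. Between sublines array weights called 1 member, and the other 15 alternatives called 0. The subline block changed no other member call.

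Over all genes selected against parental called 1273, against 800 with median centring, 2307 with the olfactory receptor mean in the fit and 517 (without parental replicate 4) to 1343 with single arrays left out. Stable against parental called 1, against 4 with genes above the 40th percentile of signal, 286 with array weights, 76 with the olfactory receptor mean, 8 in 1 fit of all 14 arrays and 1 to 26 (without the stable array of R1) with arrays left out. Selected against stable called 397, against 614 with quantile normalization, 81 with median centring, 1480 with array weights, 680 in 1 fit of all 14 arrays, 906 with subline as a replicate block, 0 with the block and the olfactory receptor mean and 86 to 962 with single arrays left out. Without subline R1, R3, R5, R6 or R7 it called 537, 60, 65, 90 and 0, and with the block 546, 688, 188, 179 and 159. Between sublines 22 were called, against 0 with quantile normalization, 0 with median centring, 0 with the olfactory receptor mean, 1389 with array weights and 0 to 410 (without the selected array of R3) with arrays left out. The causes were not tested.

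Differences near 0 changed sign, in each case without a call. For selected against parental cells they became -0.030 for SQLE and -0.031 for DHCR7 with quantile normalization. With array weights they became -0.043 for SQLE, -0.089 for INSIG1 and -0.051 for DHCR7. With the olfactory receptor mean they became -0.082, -0.025 and -0.043. Arrays left out gave -0.080 to 0.14 for SQLE, -0.068 to 0.22 for INSIG1 and -0.072 to 0.099 for DHCR7. For stable against parental cells SC5D became -0.021 with array weights and INSIG1 0.034 with the olfactory receptor mean. Arrays left out gave -0.057 to 0.15 for SC5D, -0.25 to 0.10 for INSIG1 and -0.28 to 0.029 for DHCR7. For selected against stable cells the olfactory receptor mean gave -0.040 for SQLE, -0.10 for INSIG1 and -0.072 for DHCR7, and with the block -0.064, -0.23 and -0.28, and -0.065 for LSS. Single arrays left out gave -0.36 to 0.0034 for HMGCS1, -0.068 to 0.32 for INSIG1 and -0.027 to 0.28 for DHCR7. With or without the block, INSIG1 became -0.075 without subline R6 and -0.088 without R7, and DHCR7 -0.065 without R7.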
